A study of Mus musculus with 2 samples.

Results

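The HoxC loops are the chromatin loops around the cluster of 9 Hoxc genes on mouse chromosome 15 (mm10). They were chosen by position alone, as every loop on chromosome 15 with at least 1 anchor between 102500000 and 103300000, a stretch of 800 kb. The rule took 14 of 26240 loops in diestrus and 12 of 24131 in estrus. A loop here is a pair of anchors, each 10 kb wide, whose ligation contacts exceeded those of their surroundings in Hi-C, a method that sequences DNA segments joined because they lay close together in the nucleus. Uteri came from CD-1 mice, an outbred stock, that were intact, unexposed and 2 months old. The diestrus group (progesterone phase of the cycle) and the estrus group (after the estrogen peak) have 1 library each, with no genetic change or treatment in either, and the sources used here do not say how many animals a library holds. As n = 1 per stage, nothing below was tested, and the intervals of contacts, strengths and their ratios cover counting error. Hi-C gives no expression by which to check the tissue. A loop in tissue cannot be assigned to a cell type, and a change in the mix of cells cannot be told apart from a change within cells.

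Hox genes encode homeodomain transcription factors that give cells their position along the body axis, and in the female tract those near the Hoxa13 end of HoxA pattern the Muellerian duct. Genes of a cluster lie in the order in which they are used along the axis, and chromatin contacts of the clusters with the regions on either side are known to carry their enhancers. Loops of this kind are commonly bounded by the insulator protein CTCF together with cohesin. In HoxC the order on the chromosome runs from Hoxc13 at the lower coordinate to Hoxc4 at the higher, over 116 kb from 102921131 to 103036856, with the noncoding RNA gene Hotair and the microRNA genes Mir196a-2 and Mir615 between them.

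Anchors at Hoxc9 and at Hoxc6, Hoxc5 and Hoxc4 contacted sequence beyond Hoxc4 around Smug1, and a longer loop ran from Hoxc10 or Hoxc9 to Gpr84. Between Hotair and Hoxc10 the cluster had 1 contact in the other direction, with the gene-poor stretch beyond Hoxc13. The loops without an anchor among the genes passed over the cluster or lay on either side of it. No loop had both anchors among the Hoxc genes at either stage. The shortest loop in either list was 50 kb, so contacts between close neighbours could not have been listed.

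**Figure D1:**
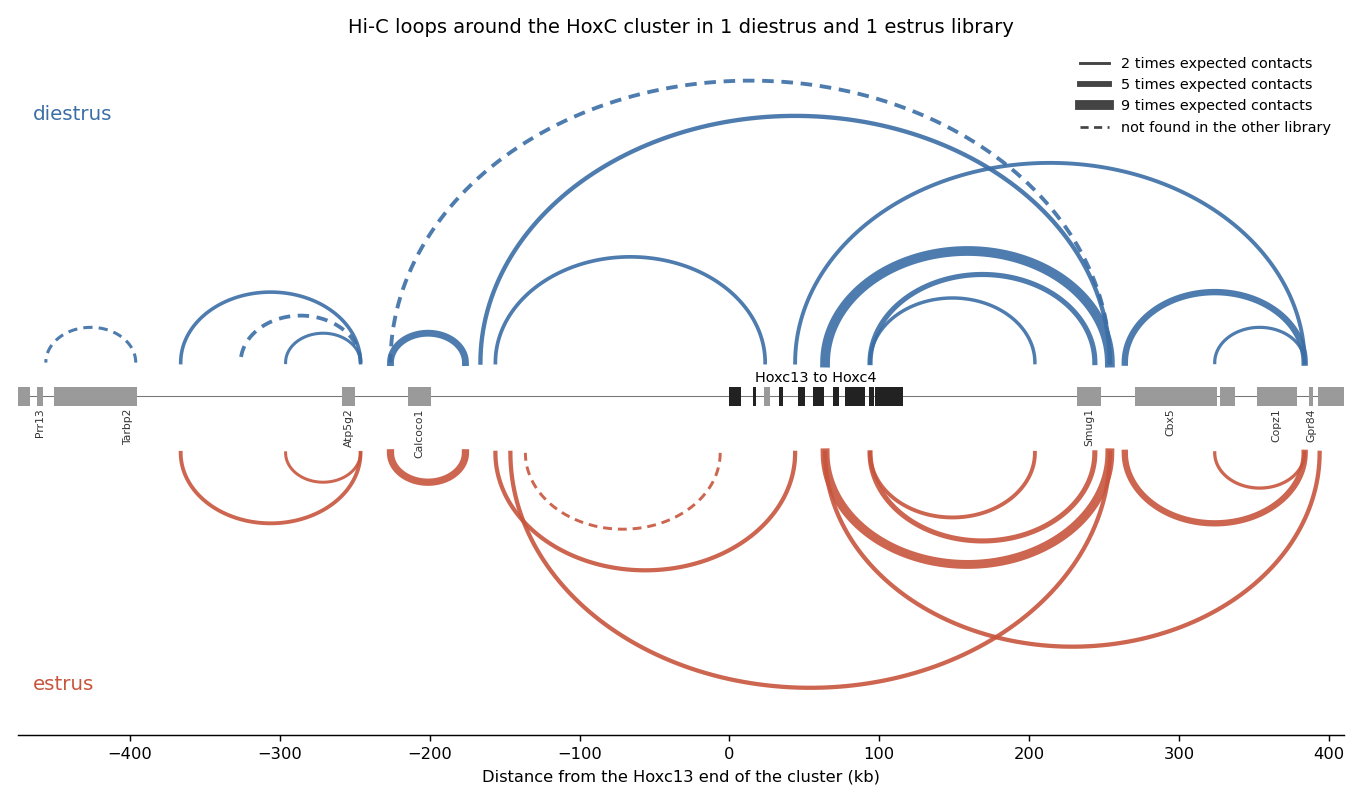
Loops of the HoxC window by distance in kb from the Hoxc13 end of the cluster, diestrus above and estrus below; each arc joins the centres of the listed anchors, its width grows with observed over expected contacts, and dashed arcs were not found in the other library. Black boxes are Hoxc genes and grey boxes are Hotair and listed neighbours. The thickest arc at both stages, 8.94 and 8.05 times the expected contacts, runs from the Hoxc9 anchor to the far side of Smug1.

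The strongest HoxC loop at both stages left from the anchor at Hoxc9, a gene of the thoracic part of the axis. It joined the anchor at 102980001 to 102990000, which holds an end of Hoxc9 (102977032 to 102984444), with 103170001 to 103180000, an anchor without a gene end between Smug1 and Cbx5. Contacts in this loop of 190 kb numbered 652 in diestrus (95% interval 603 to 704) and 539 in estrus (494 to 586). Contacts expected from the donut-shaped surroundings were 73.0 and 67.0, so that its strength, the observed over the expected number, was 8.94 (8.26 to 9.65) and 8.05 (7.38 to 8.76). In diestrus 95.7% of all loops were weaker, and it ranked 67 of 1644 loops of 180 to 200 kb, whose median strength was 3.07. In estrus 92.9% were weaker, and it ranked 101 of 1543, with a median of 3.17. Against the largest of the 4 local backgrounds the strength was 5.52 and 4.95. The caller merged 9 enriched pixels into the loop in diestrus and 10 in estrus. Their centres at the cluster, 102988333 in diestrus and 102989000 in estrus, lay in the same bin but beyond the upper end of Hoxc9. They were closer to Hoxc8, which starts at 102990539, and the pixels spread over a radius of 23.4 and 24.0 kb. The loop therefore does not separate Hoxc9 from Hoxc8.

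The Hoxc9 anchor also holds the RefSeq start of Gm36878, a noncoding RNA gene that lies inside Hoxc9. The 250 bases before that start (GRCm38.p6, minus strand, chr15:102981064-102981313) are shown because they are the promoter in the Hoxc9 anchor that the sequence table holds. Capitals in this and the promoters that follow mark any match, on either strand, to 4 short motifs. The first is the CTCF core (AGAGGGC, likewise AGATGGC, likewise AGGGGGC or likewise AGGTGGC, always with CC 3 bases before it). The others are GGTCA of estrogen receptors, TGTTCT of progesterone and glucocorticoid receptors and ACGTG of hypoxia-inducible factors. GGTCA and TGTTCT are each only a part of a full response site. In this order, the 4 motifs were found in 2.95%, 35.2%, 16.1% and 16.6% of 32851 promoters over the same length.
Gm36878: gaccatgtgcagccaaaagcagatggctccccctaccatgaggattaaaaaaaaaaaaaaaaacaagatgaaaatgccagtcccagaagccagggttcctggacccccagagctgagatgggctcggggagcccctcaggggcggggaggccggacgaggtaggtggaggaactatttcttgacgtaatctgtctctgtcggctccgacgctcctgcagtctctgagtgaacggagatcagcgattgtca
None of the 4 motifs is in this window, which covers only a small piece of the anchor.

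A pair of further loops on this side left from the anchor at 103010001 to 103020000, which holds the upper end of Hoxc6, all of Hoxc5 with Mir615 inside it, and the lower end of Hoxc4, genes of the neck and upper thorax. The 3 genes therefore share these loops, and the 10 kb bins cannot separate them. The loop of 150 kb to the anchor at 103160001 to 103170000, which holds an end of Smug1, had 432 contacts in diestrus (392 to 475) and 376 in estrus (339 to 416). Its strength was 4.29 (3.90 to 4.72) and 4.24 (3.82 to 4.69), with merged pixels centred at the same place in both libraries. The upper centre, 103170000, lay at the edge of the listed bin and beyond the end of Smug1 at 103168939. Smug1 encodes a DNA glycosylase that removes uracil from DNA. The loop of 110 kb to 103120001 to 103130000, at an end of the noncoding RNA gene D930007P13Rik, had 344 contacts (309 to 382) and 334 (299 to 372), at 2.57 (2.31 to 2.86) and 3.01 (2.69 to 3.35) times the expected number. Its intervals overlapped, as did those of the Smug1 loop.

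The sequences at this contact are the mature strands of Mir615 at chr15:103014926-103014947 and chr15:103014969-103014990 (RefSeq, GRCm38.p6, plus strand), printed with the seed, bases 2 to 8, in capitals. They show what lies in the shared anchor. miR-196a, whose gene Mir196a-2 lies at chr15:102973350-102973434 between Hoxc10 and Hoxc9, is known for targeting Hox transcripts and is shown for contrast, as its bin was an anchor at neither stage.
miR-615-5p: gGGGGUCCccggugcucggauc
miR-615-3p: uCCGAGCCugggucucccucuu
miR-196a-5p: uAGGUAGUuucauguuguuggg
At the other anchor of the 150 kb loop lies a RefSeq start of Smug1, with these 250 bases before it (minus strand, chr15:103163285-103163534).
Smug1: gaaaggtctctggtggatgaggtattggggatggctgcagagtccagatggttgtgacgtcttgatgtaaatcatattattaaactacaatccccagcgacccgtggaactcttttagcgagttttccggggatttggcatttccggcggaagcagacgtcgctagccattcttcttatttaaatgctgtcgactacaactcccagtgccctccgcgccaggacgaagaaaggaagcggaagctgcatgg
None of the 4 motifs is in this stretch, and the 3 seeds differ from each other.

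The Hoxc13 side of the cluster had a contact with fewer ligations, in the opposite direction. In diestrus it ran over 180 kb from 102760001 to 102770000, inside the noncoding RNA gene Gm36560, to the Hotair anchor at 102940001 to 102950000. Hotair is known as the source of a noncoding RNA that binds chromatin-silencing complexes. This loop held 94 contacts (76.0 to 115) at 2.82 (2.28 to 3.45) times the expected number. In estrus it ran over 200 kb from the same bin to 102960001 to 102970000, at an end of Hoxc10, a gene of the lumbar axis and hindlimb, with 82 contacts (65.2 to 102) at 3.34 (2.66 to 4.15). The listed bins differ, but the centres of the merged pixels were 6.67 kb apart at the outer anchor and 10 kb apart at the cluster, inside the radius of 29.8 kb over which the diestrus pixels spread. By its centre, at 102951666, the diestrus loop lies in the bin that holds Hoxc11. An estrus loop of 130 kb from 102780001 to 102910001, just outside Hoxc13, was the 1 estrus loop of the window not found in diestrus. It rested on 1 pixel with 76 contacts (59.9 to 95.1) at 2.07 (1.63 to 2.59) times the expected number, and 4.58% of all estrus loops were weaker.

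A long loop over 340 kb in diestrus joined the Hoxc10 anchor (102960001 to 102970000) with 103300001 to 103310000, an anchor at Gpr84, which encodes a receptor for medium-chain fatty acids. It held 82 contacts (65.2 to 102) at 3.0 (2.39 to 3.72) times the expected number. Its estrus counterpart was listed from the Hoxc9 anchor over 330 kb to 103310001 to 103320000, with 71 contacts (55.5 to 89.6) at 3.39 (2.65 to 4.28). That upper anchor holds an end of Gpr84 and an end of Zfp385a. By gene ends Zfp385a had 1 loop in diestrus and 2 in estrus, and by the centres of the merged pixels 2 and 2. Read by bin, the loop moved from Hoxc10 to Hoxc9. The centres of the merged pixels, however, were 1.33 kb apart at the cluster and 1 kb apart at Gpr84, and both lay in the Hoxc9 bin, at 102981666 and 102983000. The 250 bases before the RefSeq start of Gpr84 (minus strand, chr15:103310439-103310688) are in the estrus anchor. They are shown because, by listed bins, this was the only promoter that entered an anchor in estrus alone.
Gpr84: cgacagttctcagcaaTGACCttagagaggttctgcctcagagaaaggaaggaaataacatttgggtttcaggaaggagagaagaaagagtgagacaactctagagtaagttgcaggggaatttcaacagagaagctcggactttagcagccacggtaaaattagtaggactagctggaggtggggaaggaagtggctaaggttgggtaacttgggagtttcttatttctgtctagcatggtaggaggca
The capitals are 1 match to the estrogen receptor motif, read on the opposite strand. As 35.2% of all promoters hold that motif, the match is a description, and binding there was not tested. The diestrus loop was centred at 103310000, at the edge of the estrus bin, so the stage difference rests on a bin edge. By listed bins, some RefSeq starts of Gm36560 lay in an anchor in diestrus alone and are not printed. The one at 102750603 had matches to the motif of progesterone and glucocorticoid receptors and to that of hypoxia-inducible factors. The loop of that anchor was centred at 102768333 in diestrus, outside the bin, and its estrus counterpart at 102770000. This stage difference therefore also rests on the listed bin. Another Gm36560 start, at 102744165, lay in an anchor at both stages.

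By gene, 5 of 9 Hoxc genes reached a loop anchor with either end at each stage. Over all 21631 protein-coding genes the share was 37.2% in diestrus and 35.3% in estrus, and since Hoxc4, Hoxc5 and Hoxc6 share an anchor these 5 are not independent. Hoxc4, Hoxc5 and Hoxc6 had 2 loops each in both libraries, Hoxc10 had 1 and 1, and Hoxc9 had 1 in diestrus and 2 in estrus. Placed by the centres of the merged pixels, a setting added after the data were seen, Hoxc9 had 2 and 2 loops, Hoxc10 had 0 and 1, and Hoxc11 had 1 and 0. Hoxc8, Hoxc11, Hoxc12 and Hoxc13 had no end in an anchor at either stage. Hoxc8 is a thoracic gene and Hoxc13 is known for its role in hair and nails. Allowing a gap of 5 kb between gene and anchor, Hoxc8 had 1 and 2 loops, Hoxc11 had 2 and 1, Hoxc12 had 1 and 0, and Hoxc13 had 0 and 1. These loops are the ones described above, reached from a neighbouring bin. No Hoxc gene had a difference between the stages that held across the ways of assigning bins.

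The region between Atp5g2 and the cluster held loops that did not touch the Hoxc genes. The tightest joined 102690001 to 102700000, a bin without a gene, with 102740001 to 102750000 across Calcoco1, which encodes a coactivator and autophagy receptor and had no loop of its own. Over 50 kb it held 525 contacts (481 to 572) in diestrus against 505 (462 to 551) in estrus, at 5.99 (5.49 to 6.53) and 6.42 (5.87 to 7.01) times the expected number. It ranked 72 of 2025 loops of 50 to 60 kb in diestrus and 49 of 2115 in estrus. The upper anchor holds the lower end of Gm36560 and the noncoding RNA gene Cistr, known from cartilage differentiation, whose 250 bases before the start (minus strand, chr15:102746910-102747159) are printed as the promoter at the second strongest contact of the window in estrus.
Cistr: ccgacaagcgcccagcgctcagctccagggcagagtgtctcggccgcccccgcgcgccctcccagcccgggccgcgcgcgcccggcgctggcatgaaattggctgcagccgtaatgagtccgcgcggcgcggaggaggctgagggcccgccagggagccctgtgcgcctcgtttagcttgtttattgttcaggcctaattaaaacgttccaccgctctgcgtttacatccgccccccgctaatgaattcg
This stretch has 66.8% G and C and none of the 4 motifs.

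Loops that passed over the whole cluster held few contacts and were of ordinary strength. In diestrus 2 of them ended in the anchor at 103170001 to 103180000, the same that the Hoxc9 loop used. The loop of 420 kb from 102750001 held 58 contacts (44.0 to 75) at 3.45 (2.62 to 4.46), and its estrus counterpart of 400 kb from 102770001 held 57 (43.2 to 73.9) at 3.37 (2.55 to 4.37). The centres of these loops were 1.67 kb and 2.50 kb apart. The other, of 480 kb from 102690001, was called in diestrus alone from 1 pixel with 35 contacts (24.4 to 48.7) at 2.98 (2.07 to 4.14), the fewest contacts of any HoxC loop. The anchor at 103170001 thus carried 3 loops in diestrus and 2 in estrus. Over the genome 25.1% of diestrus anchors carried at least 3 loops and 48.4% of estrus anchors at least 2.

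Beyond the cluster on the Smug1 side, a loop of 120 kb ran from 103180001 to the Gpr84 anchor at 103300001. By listed bins it enclosed Cbx5, which encodes heterochromatin protein 1 alpha, and Copz1, a coatomer gene. The lower centre of its merged pixels, at 103191666 in diestrus and 103192272 in estrus, lay close to the lower end of Cbx5 at 103191546. Diestrus had 496 contacts here (453 to 542) and estrus 415 (376 to 457), at 5.55 (5.07 to 6.06) and 5.45 (4.94 to 6.0) times the expected number. Its 12 and 11 merged pixels were the most of any HoxC loop. A loop of 60 kb joined the same Gpr84 anchor with 103240001 to 103250000, at ends of Hnrnpa1, a splicing factor gene, and Nfe2, an erythroid transcription factor gene. It held 410 contacts (371 to 452) and 368 (331 to 408) at 2.31 (2.09 to 2.54) and 2.38 (2.14 to 2.64).

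At the lower end of the window, loops converged on the anchor of Atp5g2, which encodes a subunit of ATP synthase, at 102670001 to 102680000. The other anchors lay within or at an end of Atf7, a transcription factor gene. The shortest, of 50 kb from 102620001 at an end of Atf7, had a diestrus count of 613 (565 to 664) and an estrus count of 517 (473 to 564), at 2.17 (2.00 to 2.35) and 2.10 (1.92 to 2.29) times the expected number. The loop of 120 kb from 102550001 held 286 (254 to 321) and 282 (250 to 317), at 2.69 (2.39 to 3.02) and 2.97 (2.63 to 3.33). A loop of 80 kb from 102590001 was called in diestrus alone, with 503 contacts (460 to 549) at 2.91 (2.66 to 3.17). Its nearest estrus loop was that from 102620001, with the lower anchor 30 kb away between bin starts. The last loop called in diestrus alone, of 60 kb from 102460001 at Prr13 to 102520001 at Tarbp2, Npff and Atf7, rested on 1 pixel with 227 contacts (198 to 259) at 2.19 (1.91 to 2.49). Tarbp2 encodes a partner of Dicer in microRNA processing.

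By listed bins, the loop between Atf7 and Atp5g2 brings 2 RefSeq starts into paired anchors, which is why both promoters are printed. The lower centre of its merged pixels, at 102615000 in diestrus and 102618333 in estrus, lay outside the bin with the Atf7 start (102625464). The promoters lie on the minus strand at chr15:102625465-102625714 and chr15:102671048-102671297.
Atf7: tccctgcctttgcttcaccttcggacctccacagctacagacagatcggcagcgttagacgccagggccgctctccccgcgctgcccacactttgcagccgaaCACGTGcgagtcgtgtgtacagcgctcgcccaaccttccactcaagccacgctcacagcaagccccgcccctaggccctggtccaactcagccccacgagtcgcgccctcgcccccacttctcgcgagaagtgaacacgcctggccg
Atp5g2: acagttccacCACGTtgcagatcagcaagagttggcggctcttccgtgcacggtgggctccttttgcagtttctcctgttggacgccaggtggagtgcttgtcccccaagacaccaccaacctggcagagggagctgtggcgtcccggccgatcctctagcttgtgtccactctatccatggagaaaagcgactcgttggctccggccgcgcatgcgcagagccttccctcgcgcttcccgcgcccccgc
Both hold the hypoxia-inducible factor motif, Atf7 as the overlapping matches on both strands that CACGTG gives and Atp5g2 as 1 match on the opposite strand. Of all promoters 16.6% hold it.

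Between the stages, 11 of 14 diestrus loops (78.6%, exact binomial 95% interval 49.2% to 95.3%) had an estrus loop with both anchors at most 10 kb away between nearest bin edges, which is 20 kb between bin starts, against 74.4% of all diestrus loops. In the other direction it was 11 of 12 (91.7%, 61.5% to 99.8%) against 80.8% of all estrus loops. Both intervals hold the share of the whole list. They take the loops as independent, but several HoxC loops share an anchor, so the intervals are a description only. A difference between the window and the genome was not tested. All 5 loops with an anchor among the Hoxc genes were found again in either direction. Of the 11 pairs, 8 lay at identical bins.

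Contacts were fewer in estrus at all 11 pairs, with a median ratio of 0.872. Over all 19399 pairs of the genome 59.3% had fewer contacts in estrus and the median ratio was 0.957, and over the 792 pairs of chromosome 15 it was 0.952. Over all pairs up to 200 kb, nearer in length to most HoxC loops, 54.6% had fewer contacts in estrus and the median ratio was 0.980. The local background at the HoxC pairs was lower in estrus as well, its log2 ratio of estrus to diestrus having a median of -0.20 against -0.08 over all pairs and -0.04 over all pairs up to 200 kb. What part this background has in the lower contacts was not tested. Strength, which divides by that background, did not move one way. The log2 ratio of strength, with diestrus as the denominator and centred on the median of all pairs, was positive at 6 and negative at 5 HoxC pairs, with a median of 0.03 and a range from -0.17 to 0.23. The split was 8 positive and 3 negative against the largest of the 4 backgrounds, and 4 and 7 for centred contacts alone, so the sign of several pairs depended on the background. No HoxC pair passed 1.5-fold in either direction, where 1.64% of all pairs were stronger in estrus and 1.56% in diestrus.

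The lowest ratio was at the Hoxc9 loop, -0.17 with an interval from -0.33 to -4.29e-05, which covers counting error and takes the expected contacts as exact. It was the only interval of 11 that did not include 0, and its upper end lay almost at 0. Next came the 50 kb loop of Atf7 and Atp5g2 at -0.06 (-0.23 to 0.11) and the loop over the whole cluster at -0.05 (-0.60 to 0.50). The highest ratios were 0.23 (-0.22 to 0.67) at the Hotair and Hoxc10 contact, 0.21 (-0.01 to 0.43) at the 110 kb loop of Hoxc4, Hoxc5 and Hoxc6, and 0.16 (-0.32 to 0.64) at the Gpr84 loop of Hoxc9 and Hoxc10. The SD over the 11 pairs was 0.13, against 0.26 over all pairs and 0.22 over all pairs up to 200 kb. HoxC loops held more contacts, with medians of 377 and 351 against 125 over all loops, so their counting error is smaller. What part this has in the lower SD was not tested.

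**Figure D2:**
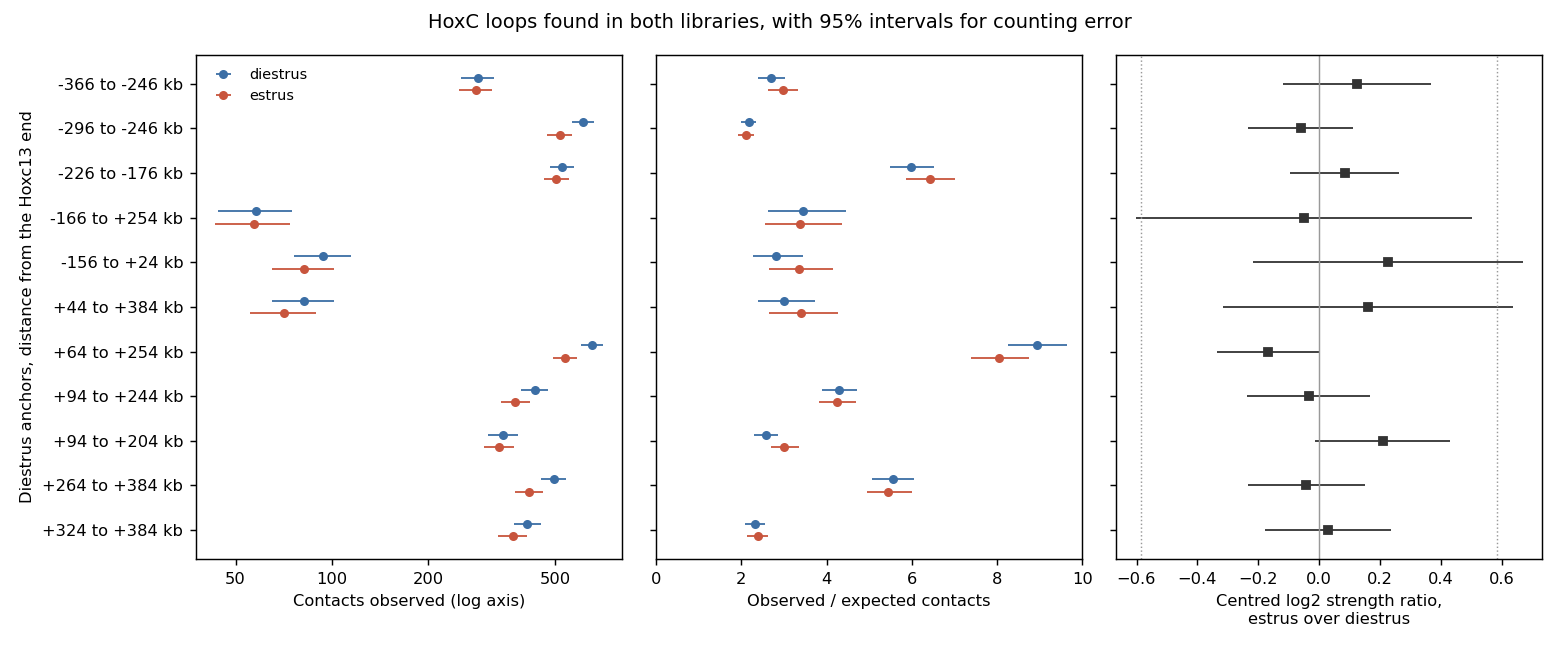
Contacts (log axis), observed over expected contacts, and the centred log2 ratio of strength for the 11 HoxC loops found in both libraries, labelled by the distance of the diestrus anchors from the Hoxc13 end; the estrus anchors of 3 of them lie up to 20 kb away. Bars are 95% intervals for counting error, and the dotted lines mark 1.5-fold. Contacts were lower in estrus at every pair, while the strengths lie on both sides of equality.

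**Figure D3:**
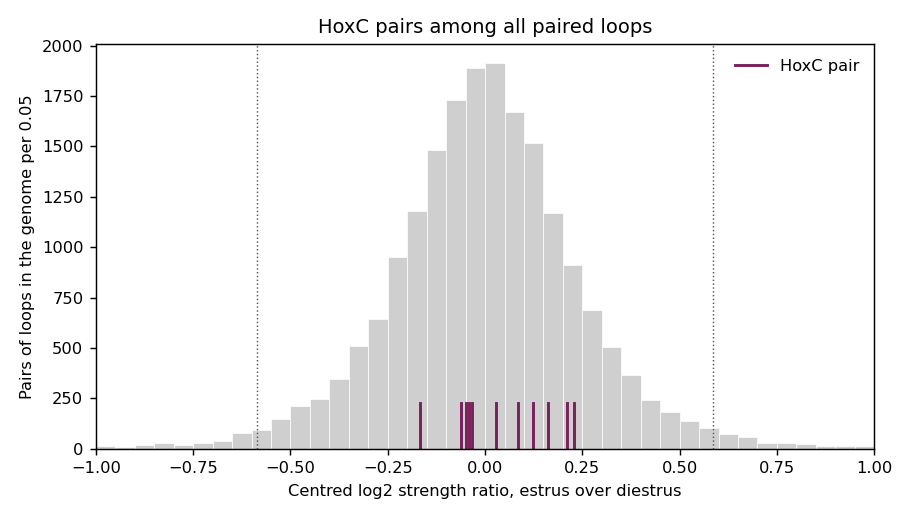
Histogram of the centred log2 ratio of strength over all 19399 paired loops, with the 11 HoxC pairs as vertical lines and 1.5-fold as dotted lines; 87 pairs lie beyond the axis. The HoxC pairs run from -0.17 to 0.23, in the middle of the distribution.

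The number of loops in the window was ordinary. Other stretches of 800 kb held a median of 12 loops in diestrus (quartiles 6 and 17) and 11 in estrus (5 and 15), against 14 and 12 here. HoxC loops held more contacts than most, with a median of 377 in diestrus and 351 in estrus against 125 in both whole lists, and they were shorter, with medians of 120 and 125 kb against 240 and 230 kb. Median strength was 2.94 and 3.36, against 3.28 and 3.43 over all loops. Just outside the limits of the rule, the nearest loops were those of 60 kb in diestrus and 50 kb in estrus at Amhr2 and Sp1, with 370 and 344 contacts, and a loop of 50 kb at Zfp385a and Itga5 with 294 and 321. Of 34 neighbouring genes listed by name, 31 matched, of which 15 reached an anchor in diestrus and 12 in estrus, against 37.2% and 35.3% of all protein-coding genes. Of the 16 neighbours with a loop at either stage, the number was higher in diestrus for 5, higher in estrus for 2 and equal for 9.

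Set beside the other Hox clusters, with windows of the same flanks, HoxC had the fewest loops. HoxA had 28 and 28, HoxB had 19 and 22, and HoxD had 26 and 21. Counting only loops with an anchor among the genes, HoxC had 5 and 5, HoxA 14 and 17, HoxB 11 and 10, and HoxD 15 and 13. With 1 library per stage these differences have no test. The longest such loop of HoxC was 340 kb in diestrus and 330 kb in estrus. In HoxA it was 3050 and 3040 kb, in HoxB 580 kb at both stages and in HoxD 1380 and 1090 kb. Loops over 400 kb from the genes numbered 0 and 0 in HoxC, 10 and 14 in HoxA, 2 and 1 in HoxB and 11 and 9 in HoxD.

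The median strength of loops at the genes was 3.0 and 3.39 in HoxC, below 5.67 and 6.07 in HoxA, 3.59 and 3.78 in HoxB and 5.75 and 6.35 in HoxD. These loops differ in length, with medians of 180 and 190 kb in HoxC and 685 and 840 kb in HoxA. In HoxB the medians were 200 and 170 kb, and in HoxD 610 and 600 kb. The Hoxc9 loop was stronger than any loop at the HoxB genes, where the strongest reached 5.43 and 5.51. It was weaker than the strongest at HoxA, 15.1 and 14.7, and at HoxD, 12.1 and 13.9. Those loops were longer, at 1050 kb in HoxA at both stages and 430 and 890 kb in HoxD. Nearer to its own length of 190 kb, the HoxA loop of 190 kb was weaker, at 5.09 and 4.71. So was the HoxD loop of 250 kb, at 5.47 and 6.35, and that of 190 kb in diestrus, at 2.53. In HoxC, 4 of the 5 loops at the genes left on the Hoxc4 side at both stages. HoxA had 9 of 14 and 12 of 17 on the corresponding side, and HoxD had 11 of 15 and 9 of 13. HoxB had 6 and 5 on that side, 4 and 4 on the other, and 1 within the cluster at each stage.

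**Figure D4:**
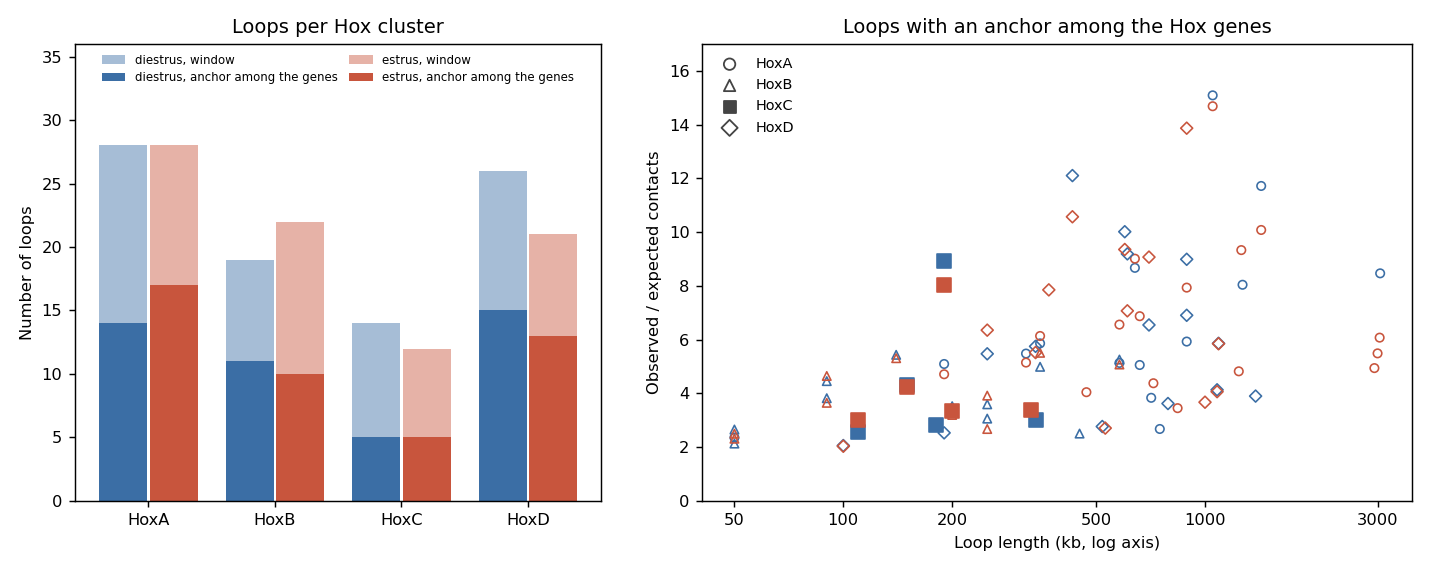
Left, number of loops in the window of each Hox cluster (pale) and with an anchor among its genes (dark), diestrus in blue and estrus in red. Right, length (log axis) and observed over expected contacts of the loops with an anchor among the genes; filled squares are HoxC. HoxC had 5 such loops at each stage, none over 400 kb.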

How the data were processed

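Hi-C libraries of mouse uterus, 1 in diestrus and 1 in estrus, were made with an Arima HiC kit, per the labels' protocols. Juicer and mm10 are named per the submitters' processing notes. Versions, aligner and loop-calling options were not given in the sources used here. Observed contacts and merged pixels are counts made by the authors, not normalized, per the file headers. The expected contacts of 4 neighbourhoods are a signal from the authors' caller, per the file headers. The deposited q-values reached 0.0955 in diestrus and 0.0991 in estrus. Positions are of another kind (other: bases), per the file headers. The lists hold called loops only, so an unlisted contact is not an absent one, and sequencing depth is not used here.

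Members were found by position. Strength was observed over donut-expected contacts. Mutually nearest loops of the lists with both anchors within 10 kb between nearest edges were paired, and log2 strength ratios were centred on the median over all pairs. Intervals at 95% are exact: Poisson for contacts, binomial for shares, conditional for ratios. Those for contacts and ratios cover counting error only, and are too narrow if PCR copies of a molecule were counted as separate read pairs. Those for shares take loops as independent, which loops with a common anchor are not. Genes came from a RefSeq table of GRCm38.p6, the assembly of mm10, and a gene was at a loop when either end lay in an anchor. All 9 Hoxc symbols matched. Promoters and miRNAs came from RefSeq tables of that build, which hold a promoter for 1 Hoxc gene. Matching and pairing were run on a list simulated from the diestrus loops, as a check of the code only. Its anchors were shifted by at most 10 kb, inside the distance allowed for a match, so recovery of the kept loops was fixed in advance. Python 3.11.15, pandas 2.3.3 and SciPy 1.17.1 were used. Named were all Hoxc genes, the RNA genes of the cluster, listed neighbours at member loops, the 5 loops with most contacts, those in 1 library alone and the 3 extreme pairs each way. The remaining loops, Atf7, Gm36560, Gm36878, Cistr and D930007P13Rik were named after their values were seen. Members and lists were chosen with earlier results of these data known.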

Additional observations from a re-analysis of the deposited data

How the results depend on the processing

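With 1 library per stage, no setting shows how loops vary between animals. No paired analysis was possible because each stage has 1 library. Counting only loops with an anchor among the Hox genes gave 5 and 5 HoxC loops (diestrus, then estrus), 14 and 17 for HoxA, 11 and 10 for HoxB, and 15 and 13 for HoxD, and by construction these are fewer than in the windows. Of the 5 HoxC loops 100% were then found in the other library, in both directions. The share of estrus loops found was also 100% with anchors up to 20 kb apart (12 of 12) and with q-values 10 times stricter (11 of 11). With identical bins required, 57.1% of diestrus and 66.7% of estrus loops were found. The median log2 ratio of contacts alone, centred on all pairs, was -0.13. Stricter q-values, a shortened diestrus list and both anchors inside the window kept the numbers of loops within 1.5-fold, with 10 to 14 diestrus loops and 9 to 11 estrus loops. The largest background gave a median log2 ratio of 0.08 and centring within length classes, added after the data were seen, gave 0.02. All 41 values of single pairs under other settings stayed inside their intervals, but 4 of 11 pairs changed sign with contacts alone and 2 of 11 with the largest background. The Hotair contact went from 0.23 to -0.13 and the Gpr84 loop from 0.16 to -0.14 with contacts alone. The largest q-values among HoxC loops were 0.0157, 0.00723 and 0.00631, at the loops of 76, 35 and 94 contacts.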

Other observations

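Among the Meis and Pknox genes, which encode partners that Hox proteins bind DNA with, Meis1 had an end at 5 loops in diestrus and 2 in estrus, and Pknox2 at 4 and 4. Meis2 had 1 and 1, Pknox1 had 1 and 0, and Meis3 had none at either stage. Allowing a gap of 5 kb, Meis1 had 34 and 31. Among the other Hox genes, 7 of 11 Hoxa genes had a loop in diestrus and 8 of 11 in estrus, 8 of 10 Hoxb genes did at both stages, and 8 of 9 Hoxd genes did at both stages, against 37.2% and 35.3% of all protein-coding genes. Neighbouring Hox genes share anchors, so these counts are not independent. Hoxa13 had 6 and 6 loops, and Hoxd13 had 4 and 4, while Hoxc13 and Hoxb13 had none at either stage by gene ends. Allowing 5 kb, Hoxc13 had 0 and 1 and Hoxb13 had 1 and 1.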
